A study of Homo sapiens with 6 samples.

Results

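Genes named LINC followed by a number are long intergenic noncoding RNAs that carry a running number in place of a name taken from their function. They were described here in cells that the labels call HepG2, a long-established liver cancer line. One line carried a short hairpin RNA (shRNA) that served as control, the other an shRNA that targets STAT3, a transcription factor that cytokines activate through Janus kinases. Each group had 3 RNA sequencing libraries, and the labels give the same serum-containing DMEM, with antibiotics, for all 6. The members were the rows of the deposited count table with such a name and a mean of at least 0.5 CPM over the 6 libraries, CPM being a gene's count per library total on the usual counts-per-million scale. This left 135 of 558 LINC rows, and of 27452 rows in all. The choice used the mean level over both groups, so the levels below are a description of what was chosen.

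Long noncoding RNAs are mostly made by RNA polymerase II, capped, spliced and polyadenylated like messenger RNAs, but carry no long conserved reading frame. Many stay near the site where they are made and some act on the gene next to them. Others bind proteins or RNAs elsewhere in the cell, host small nucleolar RNAs in their introns, or encode a short peptide despite their name. Many are turned over in the nucleus by the RNA exosome.

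Library totals were 17408543 to 25862027 counts. STAT3 lay at 261.5, 246.7 and 246.3 CPM under control shRNA and at 34.8, 35.8 and 36.2 CPM under STAT3 shRNA, 7.06-fold lower (log2 fold change -2.82 ± 0.0845 SE, edgeR quasi-likelihood adjusted p = 2.19e-07), so each library carried the level its label names. Nothing in the labels says that libraries of a group were separate cultures, or that more than 1 hairpin sequence was used, so the p-values rest on a spread between libraries that may be technical only. Any difference between the lines other than the shRNA cannot be told apart from it. Defining hepatocyte markers were at or near 0: the counts of albumin (ALB) were 2, 0 and 0 under control shRNA and 0, 0 and 3 under STAT3 shRNA. Such counts are at odds with the liver line that the labels name. The identity of the cells was not tested, and the levels below are those of cells labelled HepG2. Of 18 marker symbols of hepatocytes and other cells, 9 matched a row. The hepatocyte symbols AFP, APOB, TTR, FGB, SERPINA1 and FOXA2 matched none. The matched hepatocyte markers summed to 2.27 to 3.95 CPM under control shRNA and 5.94 to 8.94 CPM under STAT3 shRNA. HNF4A, a factor that drives hepatocyte genes and is part of this sum, rose from 1.51 ± 0.260 to 6.58 ± 1.41 CPM (2.12 ± 0.240 on the log2 scale). Transferrin (TF), the other tested hepatocyte marker, lay the other way and did not pass, with 1.59 ± 0.875 and 0.806 ± 0.333 CPM. The fibroblast collagen COL1A1 was the 1 matched marker of another cell type, at 38.3 to 43.5 and 14.3 to 16.5 CPM. The part of these markers in the results below was not tested.

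The LINC genes were weakly expressed. Their mean levels ran from 0.512 to 94.2 CPM, with a median of 2.70 CPM, against a median of 22.9 CPM over all 14999 genes tested. Together they summed to 858 ± 15.3 CPM (SD, n = 3) under control shRNA and 884 ± 20.7 CPM (n = 3) under STAT3 shRNA. These values use TMM scaling, which corrects library sizes for composition. Scaled by library totals alone, the sums were 829 ± 11.2 and 913 ± 22.3 CPM. The groups overlapped with TMM scaling, where control library 3 reached 875 CPM and STAT3 shRNA library 2 lay at 861 CPM. Counting every LINC row with at least 1 count, 318 to 344 were seen under control shRNA and 362 to 382 under STAT3 shRNA, the deepest library being STAT3 shRNA library 1. Control library 3, with 20133064 counts, had 318, and STAT3 shRNA library 3, with 17694642 counts, had 369. Rows of any gene with at least 1 count separated likewise, with 20141 to 21066 under control shRNA and 21307 to 22077 under STAT3 shRNA.

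Levels of different genes were compared per kilobase (kb) of the longest transcript in GENCODE 29, which gives transcripts of 404 to 9678 bases. LINC01895 came first, with a mean of 50.2 CPM per kb, followed by LINC01989 at 35.7, LINC00322 at 29.7 and LINC01578 at 24.0 CPM per kb. The median LINC gene had 1.26 CPM per kb. By counts alone the order was different, because LINC00963 has a transcript of 9557 bases: it had the highest CPM and only 9.85 CPM per kb.

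**Figure D1:**
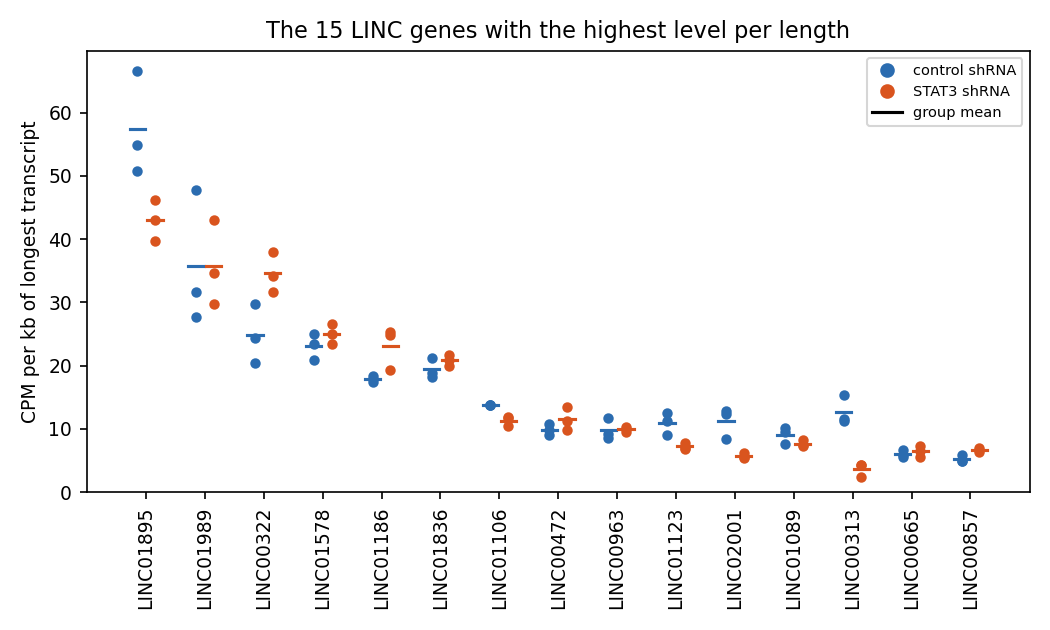
Level of the 15 LINC genes with the highest mean CPM per kb of longest transcript (vertical axis, linear from 0), 1 point per library, with control shRNA libraries in blue, STAT3 shRNA libraries in orange and bars at the group means. LINC01895 leads at a mean of 50.2 CPM per kb, and LINC00313 and LINC02001 are the genes of this plot whose groups lie farthest apart in proportion.

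GENCODE 29 holds 134 of the 135 genes by identifier. It classes 105 as lincRNA, 14 as processed transcript, 7 as antisense and 5 as transcribed unprocessed pseudogene, and the longest transcript of 25 has a single exon. The exons of 29 overlap those of another gene at 0.5 CPM or more, 22 of them on the opposite strand, and reads of such pairs cannot be told apart without strand. Among the called genes this touches LINC00689, LINC02001 and LINC00987.

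Of the 8 LINC genes that averaged 20 CPM or more, 1 passed the test, LINC01123, which fell and is given with the other falls. LINC00322, also among them, is given with its neighbours on chromosome 21. LINC00963, a transcript described in several tumours, lay at 81.6, 87.7 and 111 CPM under control shRNA and 90.2, 98.3 and 95.9 CPM under STAT3 shRNA. These overlap, and the log2 fold change, STAT3 shRNA over control in all that follows, was 0.02 ± 0.121 (SE; edgeR adjusted p = 0.936). LINC01578, now named CHASERR, limits the expression of the chromatin remodeller gene CHD2 beside it. It lay at 62.6, 67.0 and 56.0 CPM under control shRNA and 62.6, 71.1 and 67.1 CPM under STAT3 shRNA. The fold change of CHD2 was -0.15 ± 0.0847 on the log2 scale, and neither gene passed the test. LINC01989 ranged from 29.9 to 51.6 CPM under control shRNA and from 32.1 to 46.5 CPM under STAT3 shRNA, a wide spread within both groups. LINC00472 (0.23 ± 0.132) and LINC01106 (-0.28 ± 0.0969) also did not pass, although LINC01106 lay at 33.5 to 33.7 CPM under control shRNA and lower, at 25.4 to 29.01 CPM, in every STAT3 shRNA library. LINC01895, the first per length, lay at 20.5 to 26.9 CPM and at 16.1 to 18.6 CPM without overlap, and missed the threshold (edgeR adjusted p = 0.0562).

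Of the 135 LINC genes, all of which entered the test, 13 rose and 10 fell at a false discovery rate (FDR) of 0.05 (edgeR quasi-likelihood test, adjusted over all genes tested). That is 17.04% of them, and 17.5% of all genes tested were called, so the share lies near the background. In each direction the same held: 9.63% rose against 9.39% of all genes, and 7.41% fell against 8.13%. The 3 libraries of one group all lay above the 3 of the other for 51 LINC genes, or 37.8%, where 35.7% of all genes tested did so. The median log2 fold change was 0.10 over the LINC genes and -0.01 over all genes tested. At the threshold, 120 reached 0.5 CPM in both group means, 3 in the control mean only and 12 in the STAT3 shRNA mean only. The last 15 entered through the group where they were high and so had to differ. Of the 23 called, LINC01410, LINC00323 and LINC00937 entered through STAT3 shRNA, and LINC01667 and LINC01124 through control, so that their calls support nothing about LINC genes as a class. The genes just inside the threshold were LINC01484 (0.521 CPM), LINC00628 (0.522 CPM) and LINC01515 (0.535 CPM), and just outside lay LINC01465 (0.499 CPM), LINC01391 (0.491 CPM) and LINC01433 (0.483 CPM).

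The number of calls depended on single libraries. Leaving out STAT3 shRNA library 1 gave 7 higher and 4 lower. Leaving out STAT3 shRNA library 3 gave 7 and 6, and leaving out control library 2 gave 9 and 6. The share of all genes called fell alongside, from 17.5% to 9.58%, 9.60% and 9.88% in that order. Scaling by library totals gave 20 higher and 9 lower, or 69.0% of the calls higher against 56.5% here. That scaling called 18.6% of all genes and moved the median log2 fold change of all genes from -0.01 to 0.09.

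**Figure D2:**
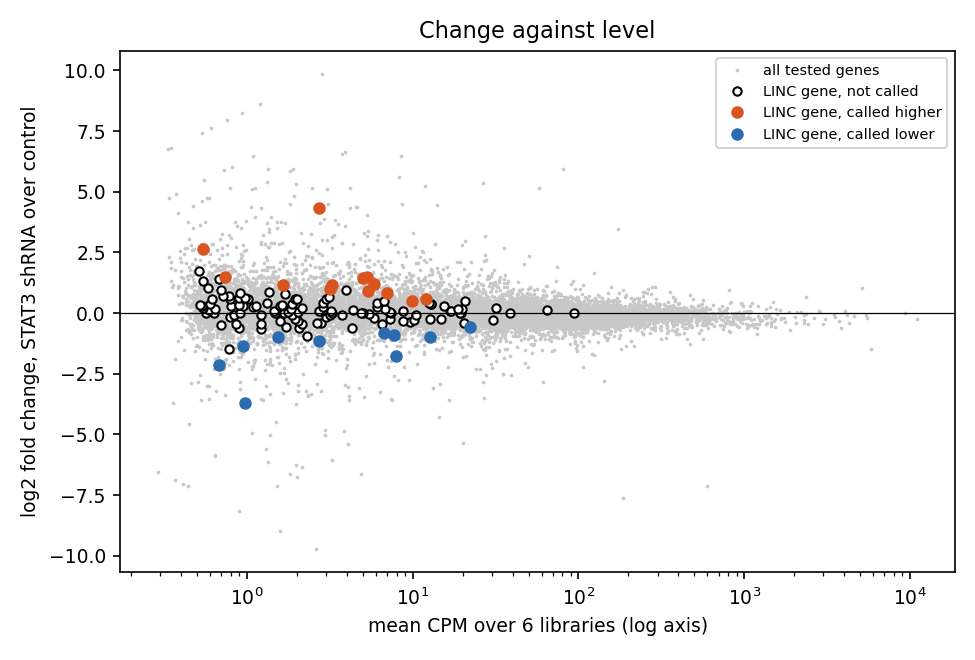
Log2 fold change, STAT3 shRNA over control (vertical axis), against the mean CPM over the 6 libraries (horizontal log axis), with all 14999 tested genes as grey dots and LINC genes as circles, filled orange where called higher (13), filled blue where called lower (10) and open where not called. The LINC genes sit at the left, and all but 8 of them have a mean below 20 CPM.

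Low counts set what could be called. The 35 LINC genes under 1 CPM had a median count of 14 per library and a median SE of 0.428 on the log2 scale, and the smallest change called among them was 1.34. The 39 genes from 5 to 20 CPM had a median count of 177.5 and a median SE of 0.171, and changes down to 0.51 were called. The largest change not called under 1 CPM was 1.74, of LINC01484, so changes of that size were called for some of the weakest genes and not for others. The plot of change against level shows the same narrowing towards higher levels.

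**Figure D3:**
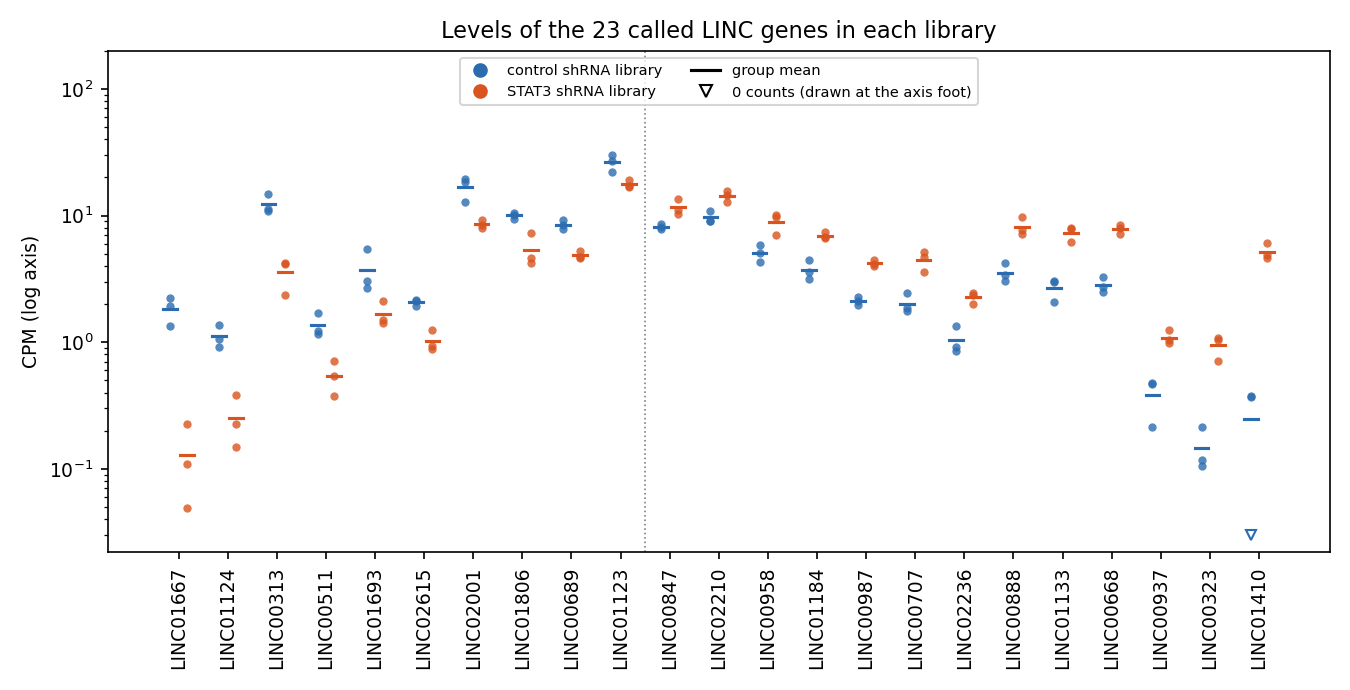
CPM in each library (vertical log axis) of the 23 called LINC genes, ordered from the largest fall to the largest rise, with control shRNA libraries in blue, STAT3 shRNA libraries in orange and bars at group means. An open triangle at the axis foot stands for 0 counts, and in no gene do the groups overlap.

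The largest rise was of LINC01410 (ENSG00000238113.6), on chromosome 9. It had 0, 7 and 7 counts under control shRNA and 129, 94 and 111 counts under STAT3 shRNA. In CPM these are 0, 0.374 and 0.369 against 4.85, 4.62 and 6.05, where the count of 0 allows up to 0.175 CPM (3 counts, counting error only). The fitted change was 19.9-fold (4.32 ± 0.529, edgeR adjusted p = 0.000601). Much of this part of chromosome 9 exists in near-identical copies, so the split of reads among copies is uncertain. The nearest tested protein-coding genes lie megabases away. CNTNAP3B, on one side and itself one of several close copies, rose, from 0.340 ± 0.299 to 2.55 ± 0.562 CPM (2.87 ± 0.503, edgeR adjusted p = 0.00427). CBWD5, on the other side, did not pass (-0.20 ± 0.165).

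LINC00323, on chromosome 21, had 2, 4 and 2 counts under control shRNA and 19, 22 and 19 counts under STAT3 shRNA. Its level rose from 0.145 ± 0.0594 to 0.943 ± 0.200 CPM (n = 3 per group), a 6.20-fold change (2.63 ± 0.485, edgeR adjusted p = 0.00563). Of the 17 called genes with a promoter window in the RefSeq table (GRCh38.p14, 250 bases before to 50 after the start), this was the 1 that held TTCNNNGAA, the palindrome that STAT dimers bind. It held that motif at 2 places, the first bases lying 68 and 23 bases before the start. The palindrome reads alike on both strands, and every TTCCNGGAA is also a TTCNNNGAA. TTCNNNGAA stood in 7.66% of all 35116 promoter windows, and in 8 of the 96 LINC genes with a window, or 8.33%. For TTCCNGGAA the shares were 1.15% and 4.17%, the latter being 4 genes. The windows of the 4 called genes with the largest changes that the table holds, and of LINC00668, whose neighbour is described below, follow as the letters behind these counts. Capitals mark TTCNNNGAA, and a window without capitals has no match in these 300 bases.
LINC00323 (chr21:41148015-41148314, minus strand): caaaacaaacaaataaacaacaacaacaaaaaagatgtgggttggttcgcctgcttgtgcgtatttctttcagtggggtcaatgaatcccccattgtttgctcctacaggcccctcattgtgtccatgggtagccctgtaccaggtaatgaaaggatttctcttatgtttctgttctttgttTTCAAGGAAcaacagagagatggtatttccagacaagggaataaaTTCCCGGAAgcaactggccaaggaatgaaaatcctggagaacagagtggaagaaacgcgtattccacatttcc
LINC00668 (chr18:6929820-6930119, minus strand): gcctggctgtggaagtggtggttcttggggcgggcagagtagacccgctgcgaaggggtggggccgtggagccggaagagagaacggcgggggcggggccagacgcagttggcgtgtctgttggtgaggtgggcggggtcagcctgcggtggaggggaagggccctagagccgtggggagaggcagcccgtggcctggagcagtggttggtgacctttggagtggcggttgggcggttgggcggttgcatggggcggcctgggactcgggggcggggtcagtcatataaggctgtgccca
LINC01667 (chr21:9821012-9821311, minus strand): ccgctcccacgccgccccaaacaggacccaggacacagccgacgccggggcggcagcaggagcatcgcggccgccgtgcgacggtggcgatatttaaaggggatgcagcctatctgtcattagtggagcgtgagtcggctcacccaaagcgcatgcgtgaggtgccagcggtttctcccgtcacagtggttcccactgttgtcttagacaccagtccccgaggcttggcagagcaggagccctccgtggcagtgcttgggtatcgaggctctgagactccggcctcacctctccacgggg
LINC01124 (chr2:170714518-170714817, minus strand): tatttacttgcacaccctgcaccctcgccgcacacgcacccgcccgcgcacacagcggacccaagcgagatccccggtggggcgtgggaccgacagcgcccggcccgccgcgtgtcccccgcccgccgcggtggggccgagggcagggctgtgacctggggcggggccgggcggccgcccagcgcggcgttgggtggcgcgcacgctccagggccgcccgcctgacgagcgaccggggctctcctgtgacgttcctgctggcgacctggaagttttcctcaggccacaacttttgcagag
LINC00313 (chr21:43478174-43478473, minus strand): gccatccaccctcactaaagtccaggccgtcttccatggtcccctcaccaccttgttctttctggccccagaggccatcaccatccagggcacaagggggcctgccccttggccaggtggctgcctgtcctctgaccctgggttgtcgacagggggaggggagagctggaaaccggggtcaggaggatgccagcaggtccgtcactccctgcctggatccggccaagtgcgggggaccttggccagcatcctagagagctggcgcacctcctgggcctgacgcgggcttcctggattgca
The windows also differ in base composition: 43.0% of bases are G or C in that of LINC00323, 69.3% in LINC00668 and 74.0% in LINC01124, with 5, 20 and 38 CG dinucleotides. A match describes letters only, and no binding was measured here.

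LINC00668, on chromosome 18, rose with the genes on both sides of it. It lay at 2.74, 3.26 and 2.48 CPM under control shRNA and at 7.18, 7.91 and 8.40 CPM under STAT3 shRNA, a 2.76-fold rise (1.47 ± 0.176, edgeR adjusted p = 0.000553). LAMA1, the laminin chain gene on one side, went from 28.7 ± 1.97 to 318 ± 19.01 CPM (3.47 ± 0.0993), a larger change than that of LINC00668. ARHGAP28, the gene of a GTPase-activating protein on the other side, went from 14.05 ± 2.98 to 22.3 ± 2.49 CPM (0.67 ± 0.165, edgeR adjusted p = 0.0221). Among the 36 tested protein-coding genes that flank LINC00668, up to 20 on each side, 7 rose (19.4%) and 2 fell (5.56%), and the median log2 fold change was 0.02. LAMA1 and ARHGAP28 are among those that rose. Over all tested protein-coding genes 10% rose and 9.18% fell.

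LINC01133, on chromosome 1, is described in several tumours and as a binder of the splicing factor SRSF6. It lay at 2.97, 3.04 and 2.06 CPM under control shRNA and 7.78, 6.19 and 7.91 CPM under STAT3 shRNA (1.44 ± 0.209, edgeR adjusted p = 0.00154). On one side of it TAGLN2, which encodes an actin-binding protein, fell (-0.51 ± 0.117), and on the other PIGM, an enzyme of GPI anchor synthesis, did not pass (0.18 ± 0.130). LINC00888, on chromosome 3, rose from 3.54 ± 0.610 to 8.15 ± 1.33 CPM (1.20 ± 0.195). LINC00987, on chromosome 12, rose from 2.12 ± 0.150 to 4.19 ± 0.205 CPM (0.98 ± 0.192), and its exons overlap those of another noncoding gene on the same strand, so that reads may be shared. LINC01410, LINC00323, LINC00668, LINC01133, LINC00888 and LINC00987 were called in each of the 11 alternative fits.

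The other rises each lost the call in at least 1 of the 11 alternative fits, and none of them changed sign. LINC01184, now named SLC12A2-DT, is transcribed away from SLC12A2, the gene of a sodium-potassium-chloride cotransporter. It lay at 4.49, 3.58 and 3.16 CPM under control shRNA and at 7.37, 6.78 and 6.65 CPM under STAT3 shRNA (0.89 ± 0.181, edgeR adjusted p = 0.00904, and 0.0531 without STAT3 shRNA library 1). SLC12A2 rose beside it, from 11.5 ± 1.85 to 18.6 ± 1.49 CPM (0.69 ± 0.143). LINC00707 rose from 2.02 ± 0.383 to 4.47 ± 0.795 CPM (adjusted p = 0.0527 without STAT3 shRNA library 3, edgeR). LINC00958, described in bladder and other tumours and lying beside the Hippo pathway factor TEAD1, rose from 5.05 ± 0.749 to 8.91 ± 1.69 CPM (0.82 ± 0.192). Its adjusted p was 0.0874 and 0.0900 without STAT3 shRNA library 1 or 3 (edgeR), and TEAD1 had a log2 fold change of 0.08 ± 0.126. LINC02210 rose from 9.67 ± 1.08 to 14.2 ± 1.37 CPM, and leaving out control library 2, STAT3 shRNA library 1 or STAT3 shRNA library 3 gave adjusted p-values of 0.103, 0.110 and 0.0887 (edgeR). LINC02236 (1.15 ± 0.288) and LINC00937 (1.49 ± 0.409), and LINC00847 (0.51 ± 0.142), which falls outside the rule for named genes and was added after its values were seen, lost the call when any single library other than control library 1 was left out. Their adjusted p-values then were 0.0614 to 0.101, 0.0541 to 0.152 and 0.0645 to 0.139 in that order (edgeR). Without the filter on low counts LINC00937 had an adjusted p of 0.0500279 (edgeR), just past the threshold. DESeq2 did not call LINC00937 (adjusted p = 0.102) or LINC00847 (adjusted p = 0.0619).

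The deepest fall was of LINC01667 (ENSG00000280081.4), on chromosome 21. It had 23, 36 and 42 counts under control shRNA and 6, 1 and 2 counts under STAT3 shRNA. Its level went from 1.83 ± 0.444 to 0.128 ± 0.0897 CPM (n = 3 per group), a 12.99-fold fall (-3.70 ± 0.4996, edgeR adjusted p = 0.00101). LINC01669, on the same chromosome, had a log2 fold change of -1.47 ± 0.853 and did not pass, with 1.08 CPM in STAT3 shRNA library 2 against 0.113 and 0.055 CPM in the other two. SMIM11B, the nearest tested protein-coding gene on one side of LINC01667, was also uneven within a group. It had 262, 361 and 293 counts under control shRNA and 7, 436 and 382 counts under STAT3 shRNA. Whether reads here are split among near-identical copies was not tested, so the size of the fall of LINC01667 is uncertain.

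LINC00313 was the best-covered gene among the strong falls. It lay at 10.8, 11.2 and 14.8 CPM under control shRNA and at 4.21, 4.17 and 2.34 CPM under STAT3 shRNA, a 3.40-fold fall (-1.77 ± 0.237, edgeR adjusted p = 0.000972). In GENCODE 29 it shares its stretch of chromosome 21 with LINC00319 and LINC00322, which lie on either side of SIK1, a kinase gene that cAMP signalling induces. Those lay the other way or overlapped: LINC00322 went from 14.3, 16.98 and 20.8 CPM to 23.9, 26.6 and 22.1 CPM (0.48 ± 0.148, edgeR adjusted p = 0.0552), and LINC00319 from 13.9 ± 3.22 to 17.03 ± 2.11 CPM (0.29 ± 0.179). SIK1 itself was at 736 ± 26.5 and 665 ± 21.5 CPM (-0.15 ± 0.0775, edgeR adjusted p = 0.238). LINC00313 was the 1 of these 4 genes that passed the test. In all, 10 LINC genes lie on chromosome 21, of which LINC01667 and LINC00313 fell, LINC00323 rose and 7 were not called.

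LINC02001, now named SNHG30, is a host of small nucleolar RNAs. It lay at 12.7, 18.5 and 19.3 CPM under control shRNA and at 8.004, 9.18 and 8.40 CPM under STAT3 shRNA (-0.99 ± 0.172, edgeR adjusted p = 0.00415). LINC00689, on chromosome 7, fell from 8.47 ± 0.735 to 4.87 ± 0.367 CPM (-0.80 ± 0.150, edgeR adjusted p = 0.00622). Its exons overlap on the opposite strand those of VIPR2, a receptor for vasoactive intestinal peptide, which fell from 39.2 ± 4.49 to 14.2 ± 1.71 CPM (-1.47 ± 0.132). No source used here gives the strand setting of the counts, so reads of VIPR2 counted for LINC00689 cannot be told apart from its own. LINC01667, LINC00313, LINC02001 and LINC00689 were called in each of the 11 alternative fits.

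LINC01124 and LINC01806 fell on the long arm of chromosome 2 among many coding genes that fell. LINC01124 lay at 1.05, 0.908 and 1.37 CPM under control shRNA and at 0.225, 0.147 and 0.382 CPM under STAT3 shRNA (-2.14 ± 0.452, edgeR adjusted p = 0.0110, and 0.0637 without STAT3 shRNA library 1). Its neighbours are UBR3, a ubiquitin ligase gene (-0.55 ± 0.122), and GAD1, which encodes the enzyme that makes GABA (-1.10 ± 0.163), and both fell. LINC01806 went from 10.0 ± 0.562 to 5.37 ± 1.65 CPM (-0.91 ± 0.208, edgeR adjusted p = 0.0166, and 0.0666 without control library 2, 0.0833 without STAT3 shRNA library 1). Its neighbours are TANK, an adaptor of innate immune signalling (-0.50 ± 0.118), and PSMD14, a deubiquitinase of the proteasome (-0.66 ± 0.0801), which both fell. Among the 40 tested protein-coding genes that flank LINC01124, 21 fell and 2 rose, and around LINC01806 20 fell and 2 rose, with many genes in common. Of all tested protein-coding genes 9.18% fell. From NR4A2 to PDK1, the stretch that holds both, 27 of 47 tested coding genes fell and 2 rose (median log2 fold change -0.53). This stretch was picked out on these libraries, so its counts are a description.

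Of the 12 LINC genes on chromosome 2, 4 others lie where many coding genes moved together, and none of these 4 was called. They were chosen after their windows were seen. Around LINC01963, 31 of 40 flanking coding genes fell and 1 rose. Its own level was 14.5, 9.24 and 9.07 CPM under control shRNA and 9.28, 7.76 and 8.29 CPM under STAT3 shRNA (-0.37 ± 0.197, edgeR adjusted p = 0.241). Only control library 1 stood clear of the rest. Around LINC01881, 17 of 20 fell, around LINC00471 26 of 40 fell, and around LINC01814 18 of 33 rose and 1 fell. These 3 genes had means of 0.630 to 2.10 CPM and log2 fold changes of -0.44 ± 0.466, 0.01 ± 0.445 and 0.36 ± 0.455 in that order. The medians of their windows were -0.75, -0.64 and 0.44.

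LINC01123 lies elsewhere on chromosome 2, and 3 of its 40 flanking genes fell. It went from 26.5 ± 4.203 to 17.6 ± 1.22 CPM (-0.59 ± 0.135). The call of LINC01123 was lost without control library 2 (edgeR adjusted p = 0.0720), STAT3 shRNA library 1 (0.0799) or STAT3 shRNA library 3 (0.0773). LINC01693, now named NTRAS and described as a binder of the splicing factor hnRNP L, fell from 3.73 ± 1.53 to 1.68 ± 0.378 CPM (-1.15 ± 0.325). Control library 3 was high, at 5.48 CPM against 3.03 and 2.67, and without it the log2 fold change was -0.76 (edgeR adjusted p = 0.125). The call was also lost without STAT3 shRNA library 1 (0.144) or 3 (0.143). LINC00511, described in many tumours, fell from 1.36 ± 0.284 to 0.542 ± 0.167 CPM (-1.34 ± 0.375), and LINC02615 from 2.06 ± 0.115 to 1.03 ± 0.200 CPM (-1.01 ± 0.278). Both lost the call when any single library other than control library 1 was left out, with adjusted p-values of 0.0683 to 0.165 and 0.0608 to 0.143 (edgeR), and with DESeq2 (adjusted p = 0.0821 and 0.0851). LINC02615 was also lost with library totals (edgeR adjusted p = 0.0505) and without the filter on low counts (0.0601).

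The protein-coding genes next to the LINC genes were then set beside them, taking the nearest tested one on each side. No limit was set on distance, and some of these genes lie megabases away, those of LINC01410 and LINC01667 among them. Of the 46 neighbours of the 23 called LINC genes, 15 were called, or 32.6%, against 40 of the 204 neighbours of the other LINC genes (19.6%) and 19.2% of all tested protein-coding genes. Of those 15, 11 went the way of the LINC gene and 4 the opposite way. For the LINC genes that were not called, 30 pairs with a called neighbour went the same way and 14 the opposite way, a similar split. The count of 15 became 7 without control library 2, and it was 5 and 8 when STAT3 shRNA library 1 or 3 was left out. Pairs of one stretch are not independent, 4 of the 15 being the neighbours of LINC01124 and LINC01806, and no test of this difference was made.

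**Figure D4:**
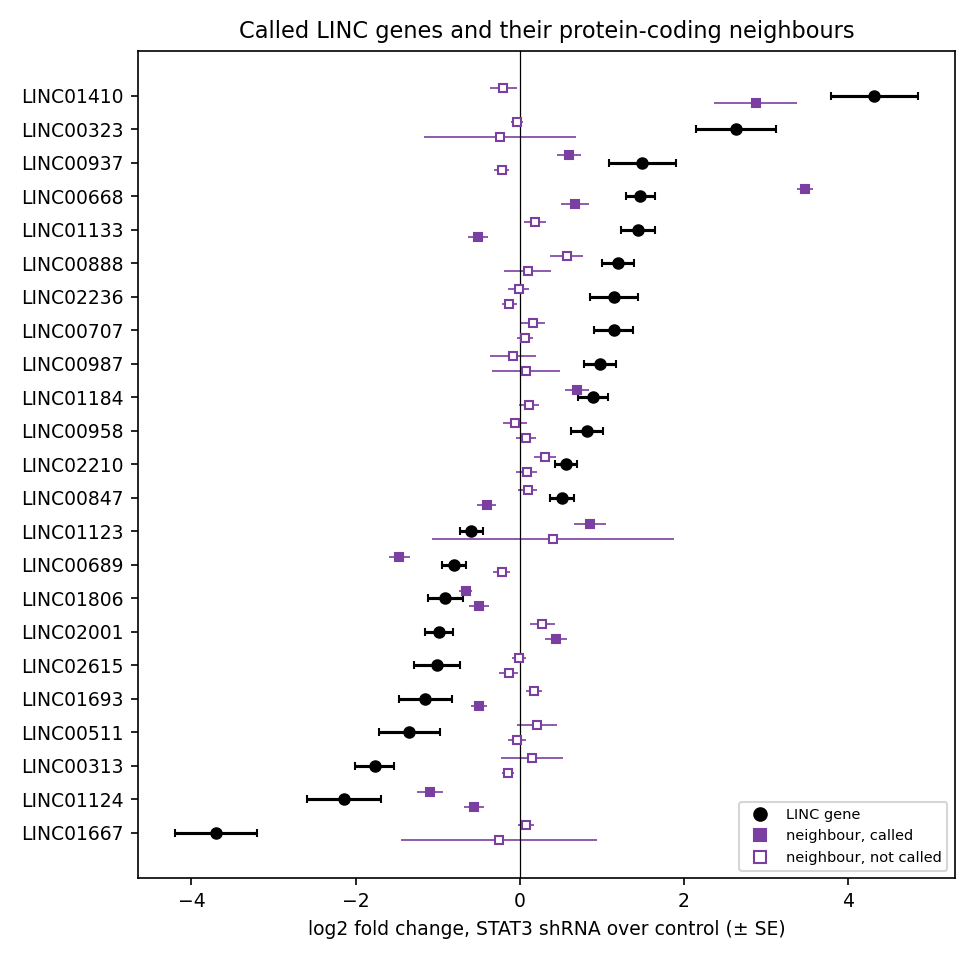
Log2 fold change, STAT3 shRNA over control, ± SE (horizontal axis) of the 23 called LINC genes (black circles) and, in the same row, of the nearest tested protein-coding gene before it (square below) and after it (square above), filled where called. For LINC00668 the neighbour LAMA1 lies far to its right, and 15 of the 46 squares are filled.

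Head-to-head pairs, in which a LINC gene and a tested coding gene start within 1000 bases of each other on opposite strands, numbered 14. LINC01184 and SLC12A2, given above, were the 1 pair with both genes called. ZC3H12A, which encodes an RNase that degrades inflammatory messenger RNAs, fell from 24.1 ± 4.89 to 10.5 ± 1.95 CPM (-1.20 ± 0.179, edgeR adjusted p = 0.00179). Its partner LINC01137, now ZC3H12A-DT, went from 4.72, 4.96 and 5.96 CPM to 3.42, 3.78 and 2.94 CPM (-0.62 ± 0.189) and missed the threshold (edgeR adjusted p = 0.0514). ATP5PO, a subunit of the mitochondrial ATP synthase, fell (-0.30 ± 0.0852), and its partner LINC00649 did not pass (0.83 ± 0.370, edgeR adjusted p = 0.162), with 0.649 ± 0.225 CPM under control and 1.16 ± 0.148 CPM under STAT3 shRNA. The exons of these 2 genes overlap on opposite strands, and ATP5PO averaged 141 CPM. Reads of ATP5PO counted for LINC00649 thus cannot be told apart from its own. In 6 of the 14 pairs both fold changes had the same sign.

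Among 10 LINC genes known to encode a micropeptide, 1 matched a row, LINC00467, whose peptide binds the ATP synthase. It did not pass (-0.24 ± 0.159), with 7.84 ± 1.17 CPM in the control and 6.66 ± 0.407 CPM under STAT3 shRNA. This list and those of tumour and liver genes were matched by LINC symbol only. Genes that carry a newer name in the counts were therefore missed, and a symbol without a match does not show that the gene is absent. Of 18 LINC genes often described in tumours, 10 were among the 135, and LINC01133 and LINC00958 rose and LINC00511 fell, as given above, beside 17.5% called over all genes tested. The 3 calls became 1 without STAT3 shRNA library 1 or without STAT3 shRNA library 3. LINC00346, now named PRECSIT after a role in activating STAT3 in skin cancer, was chosen after its values were seen. It lay at 11.1, 9.56 and 11.5 CPM under control shRNA and at 13.9, 16.4 and 13.03 CPM under STAT3 shRNA, without overlap, and missed the threshold (0.43 ± 0.138, edgeR adjusted p = 0.0644).

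Genes that act in nuclear turnover of long noncoding RNAs, the exosome subunits and their adaptors, showed no calls. Of 22 tested, 0 passed by edgeR (17.5% of all genes tested did), 3 had an unadjusted p under 0.05 and 1 passed by DESeq2, and the log2 fold changes ran from -0.64 for the exosome subunit EXOSC4 to 0.21 for EXOSC6. Without control library 1 the count by edgeR was 4.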

How the data were processed

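RNA sequencing of 6 libraries, 3 per group as the labels give them, measured expression. The authors deposited raw counts per gene, per the file headers. Aligner, counter, strand setting, build and annotation release: not given in the sources used here. Members and lists were chosen with earlier results of these data known.

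Counts were fitted in R 4.3.3 with edgeR 4.0.16: filterByExpr defaults (minimum count 10, minimum total 15), TMM scaling, robust quasi-likelihood F test, two-sided, group only, Benjamini-Hochberg adjustment over 14999 genes, FDR 0.05. CPM are counts over TMM-scaled library sizes, except in the member rule (column totals). The SE is the log2 fold change over the square root of F. The fit was tested on simulated data. Library pairs within groups differed by more than sampling noise (chi-square per degree of freedom 4.2 to 43.0). Alternatives were DESeq2 1.42.0, other scalings, no filter, a replicate block and leaving out each library.

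GENCODE 29 matched 134 of 135 members by identifier and gave gene order, length and exons. As 16313 of 26420 identifiers shared its versions, none of its coordinates are given. RefSeq promoters (GRCh38.p14) were matched by symbol for 96. Named were called members, up to 12 per direction by size of change, the 6 with the highest mean CPM, list members, and those nearest the threshold. Some neighbouring genes are not reported here.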

Additional observations from a re-analysis of the deposited data

How the results depend on the processing

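The count of 13 higher LINC genes became 20 with library totals and 7 to 18 when single libraries were left out, and the count of 10 lower ones became 4 to 13, while the share of all genes called ran from 9.58% to 26.5% without single libraries and was 18.6% with library totals. The call for STAT3 held in all 11 alternatives. Of 253 alternative values of the 23 called LINC genes, 0 changed sign and 53 were no longer called, and 10 of the 23 were called in all. The count of 15 called neighbours, an analysis whose alternatives were chosen after the data were seen, ran from 5 to 17 when single libraries were left out. The difference of the summed level, STAT3 shRNA minus control, was 25.9 CPM, 84.1 CPM with library totals and 18.0 to 37.6 CPM without single libraries. The cause of these differences was not tested. The labels do not say whether the library numbers pair the libraries. Same-numbered libraries deviated from their group means with correlations of 0.279, 0.191 and -0.227. With 3 libraries per group these values cannot show whether libraries of 1 number were prepared together. With the number as a replicate block 11 LINC genes rose and 7 fell, 18 of the 23 calls being kept, and not every library correlated best with its own number. Depth limits the 35 LINC genes under 1 CPM, whose median count per library was 14.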

Other observations

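Below the threshold of 0.5 CPM lay 423 LINC rows, of which 5 were tested. LINC01508 and LINC01559, chosen after their values were seen, were called higher. LINC01508 had 0, 1 and 0 counts under control shRNA and 17, 16 and 14 counts under STAT3 shRNA (edgeR adjusted p = 0.00254). LINC01559 had 0, 1 and 0 counts under control shRNA and 18, 14 and 11 counts under STAT3 shRNA (edgeR adjusted p = 0.00323). Among 6 LINC genes of liver or endoderm, 1 matched a row: LINC01554, a liver transcript, had 2, 3 and 3 counts under control shRNA and 31, 16 and 8 counts under STAT3 shRNA, and the filter on low counts kept it out of the edgeR test. It was called by DESeq2, by edgeR without the filter, and by edgeR without control library 1, control library 3 or STAT3 shRNA library 3.

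Of 28 tested long noncoding RNAs with names outside the LINC series, 5 rose and 5 fell, and the log2 fold changes ran from -1.49 to 4.73, where 17.5% of all genes tested were called. The 10 calls became 5 without STAT3 shRNA library 3, 6 without control library 2 and 14 without control library 1.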
